A study of Mus musculus with 159 samples.

Results

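Mitochondrial ribosomal proteins are the proteins of the ribosome inside mitochondria, named Mrpl for the large subunit and Mrps for the small subunit. The members described here are all probes whose gene symbol begins with Mrpl or Mrps followed by a number, chosen by name alone. They were 97 probes of 70 genes among 13983 probes and 9703 gene symbols of the deposited table. Of the 70 genes, 45 belong to the large subunit, counting Mrps18a and Mrps30, which sit in it despite their names, and 25 to the small subunit. Proteins with a counterpart in bacterial ribosomes are encoded by 42 of the genes, and 28 encode proteins found only in mitochondria. A gene was read by 1 probe in 49 cases, 2 probes in 16, 3 probes in 4 and 4 probes in 1.

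Transcripts were measured on Illumina bead arrays in liver and prefrontal cortex (PFC) of female C57BL/6J mice, an inbred strain that drinks ethanol readily, with an age of 2.5 months in the labels. Each of 4 treatments had its own untreated mice: Chronic (continuous choice between 20% ethanol and water), CI (the same choice every other day, chronic intermittent), DID (drinking in the dark, limited daily access to 20% ethanol from a single bottle) and LPS (lipopolysaccharide, a bacterial wall product that activates innate immunity, 2 injections of 1 mg/kg). By the paper, the LPS injections were a week apart and tissue was taken a week after the last. Tissue of the ethanol groups was taken about a day after the last ethanol. Controls of the ethanol groups drank water, while for LPS controls the labels give water and the series' design saline. DID mice were kept on a reversed light cycle and killed in the dark phase, unlike the others, so time of day cannot be told apart from study in any comparison between DID and another treatment. Unlike the labels, the paper gives Chronic and CI mice a higher starting age than DID and LPS mice. The length of treatment also differed between treatments. Where starting age or length differs, it cannot be told apart from study. With 10 arrays in each group and 9 in the Chronic PFC controls, 159 arrays were used, 1 for each tissue of a mouse. The authors had removed 1 Chronic PFC control array that clustered apart and held many outlying values.

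Animal mitochondria make a small set of respiratory chain proteins on their own ribosomes. The ribosomal RNAs come from the mitochondrial genome, while every ribosomal protein is encoded in the nucleus, made in the cytosol and imported, so that the particle depends on a balanced supply from many nuclear genes. Compared with its bacterial relative the particle has less RNA and many added proteins. PFC and liver both rely heavily on respiration, and the liver oxidizes acetaldehyde, the product of ethanol, within mitochondria. In bulk tissue, fewer cells of a type and less RNA per cell cannot be told apart.

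Values are log2 intensities normalized within each tissue and treatment, and a change is treated less control on that scale. A transcript is said to have risen or fallen where its limma p-value, adjusted by Benjamini and Hochberg over all probes of the comparison, was under 0.05. DE (differentially expressed) means an unadjusted p under 0.05, the threshold of the study's methods. Markers of each tissue were bright on its arrays. The 4 measured neuron markers averaged 11.3 to 13.5 on PFC arrays, with the lowest value on a CI PFC control array. The 6 hepatocyte markers averaged 12.5 to 13.6 on liver arrays. A few arrays stood apart: the mean correlation with the other arrays of the set was 0.946 for control replicates 5 and 6 of CI PFC and 0.974 and 0.978 for treated replicates 6 and 2 of Chronic PFC. Results that rest on these arrays are given with and without them.

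Across the 8 comparisons, 2 member probes passed the adjusted threshold: Mrps17 rose in PFC after LPS and Mrps22 rose in liver after Chronic drinking. Between 89 and 94 member probes were measured in a set, and 85 in all 8 sets. Of the 97 probes, 57 were DE in no comparison, 33 in 1, 5 in 2 and 2 in 3, and 32 of the 70 genes were never DE by any probe. At least 1 comparison had a DE call for 41.2% of the members and 35% of all probes, and, over probes measured in all 8 sets, for 43.5% and 45.5%. Of all probes, the share past the adjusted threshold was 0.113% in LPS PFC, 1.5% in Chronic liver, 0.23% in CI liver, 0.0224% in DID liver and 0.555% in LPS liver, and 0% in Chronic, CI and DID PFC. The changes of the members were small. The lowest was -0.26 and the highest 0.21, and the standard error of a member's change had a median of 0.04 to 0.08 over the 8 sets.

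**Figure D1:**
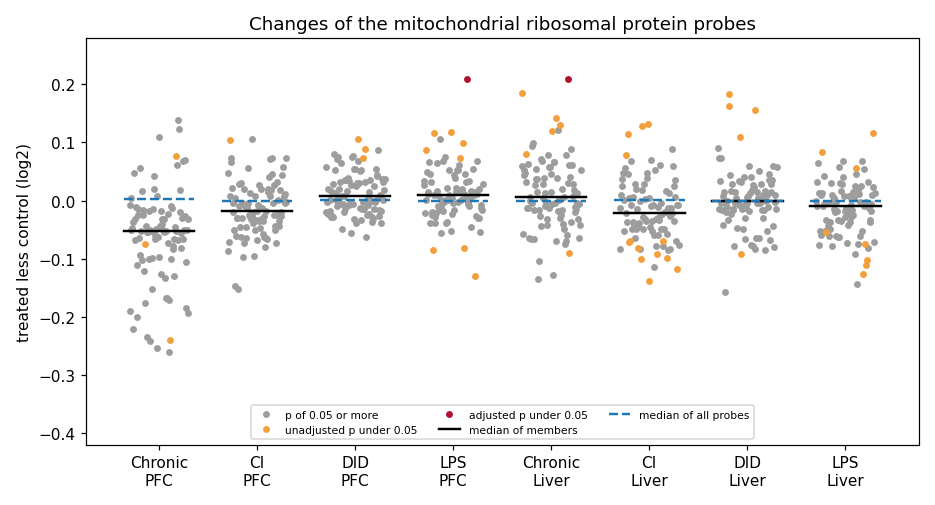
Change of each member probe (treated less control, log2) in the 8 comparisons. Each point is 1 probe, coloured by its p-value, the black bar is the median of the members and the dashed bar that of all probes. Of all the points, 2 are red (Mrps17 in LPS PFC and Mrps22 in Chronic liver, both 0.21), and the Chronic PFC points lie mostly below 0.

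Mrps17 encodes a small subunit protein that binds ribosomal RNA and has a bacterial counterpart. The gene lies on chromosome 5 (chr5:129715450-129718712, GRCm38.p6) and was read by 1 probe. In PFC of LPS controls the Mrps17 probe had a lowest value of 11.56, a median of 11.65 and a highest of 11.70 over 9 mice, since the authors had blanked 1 control value as an outlier. In the 10 LPS treated mice the values were 11.72, 11.87 and 11.96. The groups did not overlap, and all 10 treated mice lay above the highest control. The change was 0.21 (SE 0.03, adjusted p = 0.0190), higher in 10 of 10 treated mice. Without treated replicate 6 and control replicate 1, the 2 least correlated arrays of the set, it was 0.22 (SE 0.04, adjusted p = 0.0506). Mrps17 was the sole member whose groups did not overlap in any of the 8 comparisons; in LPS PFC this held for 4 of 11508 probes, or 0.0348%, and in the other PFC sets for 0.0247% (Chronic), 0.00887% (CI) and 0% (DID). In liver it held for 0.129% (Chronic), 0.0105% (CI), 0.0112% (DID) and 0.0942% (LPS) of all probes and for no member.

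In the other 7 comparisons the Mrps17 groups overlapped. The change was 0.07 (SE 0.04) in CI PFC, -0.02 (SE 0.04) in DID PFC and -0.08 (SE 0.08) in Chronic PFC. In liver the changes of Mrps17 ran from -0.07 (SE 0.04) in the Chronic study to -0.02 (SE 0.07) in DID, with -0.06 (SE 0.06) after LPS. The difference between liver and PFC in the LPS change was -0.27 (SE 0.07, adjusted p = 0.0549) and that between DID PFC and LPS PFC -0.23 (SE 0.05, adjusted p = 0.128). Neither passed, so a difference of the Mrps17 response between tissues or treatments was not established.

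**Figure D2:**
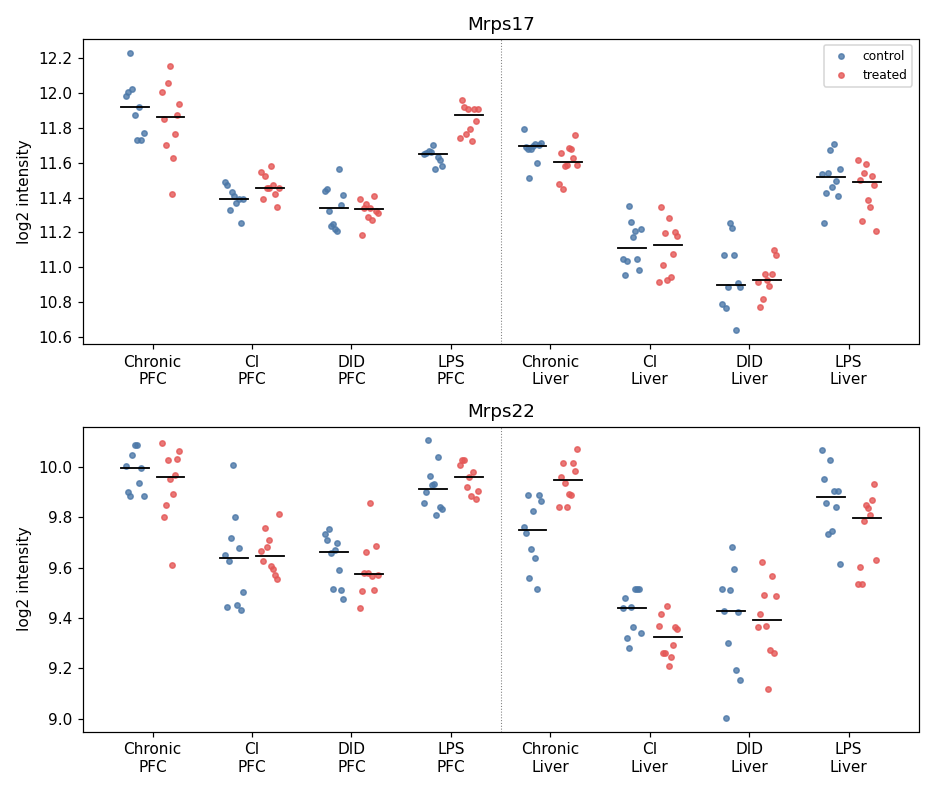
Log2 intensity of Mrps17 (upper) and Mrps22 (lower) in every mouse of the 8 sets, with controls in blue, treated mice in red and group medians as bars. The groups are apart for Mrps17 in LPS PFC, and Mrps22 passed the adjusted threshold in Chronic liver. Sets were normalized separately, so levels in different sets are not on a common scale.

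Mrps22 encodes a small subunit protein with no bacterial counterpart, and in humans its loss impairs mitochondrial translation. The gene lies on chromosome 9 (chr9:98588730-98601679) and was read by 1 probe. In liver of Chronic controls the lowest, median and highest values were 9.52, 9.75 and 9.89, and in treated mice 9.84, 9.95 and 10.07. All 10 treated mice lay above the control mean, and 7 above the highest control. Mrps22 rose by 0.21 (SE 0.05, adjusted p = 0.0331), and 3 of the 10 treated mice lay within the control range. With the 2 least correlated arrays of the set left out, control replicates 1 and 4, the change was 0.19 (adjusted p = 0.0630).

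In the other liver studies Mrps22 had changes below 0 or near it. After CI the control values were 9.28, 9.44 and 9.52 and the treated values 9.21, 9.32 and 9.45, with a change of -0.10 (SE 0.04, adjusted p = 0.321). After LPS the controls were 9.61, 9.88 and 10.07 and the treated mice 9.53, 9.80 and 9.93, with a change of -0.13 (SE 0.06, adjusted p = 0.430). In DID liver it was 0.02 (SE 0.08). The groups overlapped in all 3 of these studies. The Mrps22 changes differed between studies by the test of the difference itself: Chronic less CI was 0.31 (SE 0.06, adjusted p = 0.0131) and Chronic less LPS 0.34 (SE 0.08, adjusted p = 0.0210). Both differences use the same Chronic mice. Length of treatment, and for LPS also the starting age in the paper, cannot be told apart from study in them. In these contrasts 0.187% and 1.3% of all probes passed. The difference between Chronic liver and Chronic PFC was 0.26 (SE 0.07, adjusted p = 0.158), and in PFC the Mrps22 changes lay between -0.05 and 0.03.

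Over all 16 contrasts between studies or tissues, these 2 were the member differences that passed. The next smallest adjusted p-values after those of Mrps22 and Mrps17 were for Mrpl46 (0.22, SE 0.06, adjusted p = 0.0668) and for a probe of Mrpl10 (0.20, SE 0.06, adjusted p = 0.0924), both for Chronic less LPS in liver. No member passed in any of the 6 contrasts between PFC studies, where 0.00891% of all probes passed for Chronic less LPS, 0.0361% for DID less LPS and 0% for the others. At an unadjusted p under 0.05 they held 3 to 5 member probes each, against 4.36% of all probes for Chronic less CI, 3.56% for Chronic less DID, 6.56% for Chronic less LPS, 6.11% for CI less DID, 4.88% for CI less LPS and 7.59% for DID less LPS. In the other liver contrasts, where no member passed, 0.093% of all probes did for Chronic less DID, 0.0114% for CI less DID, 0.0545% for CI less LPS and 0.148% for DID less LPS. For liver less PFC the shares were 0.264% (Chronic), 0.0124% (CI), 0% (DID) and 0.269% (LPS), again with no member.

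The promoters of 62 of the 70 member genes were matched by symbol to the RefSeq promoter set (GRCm38.p6) and searched over the 250 bases before the listed start, on both strands. The letters CGGAAG, a core bound by GABP and other ETS factors that are known to control mitochondrial genes, were in 30 of the 62 (48.4%), against 13.8% of 27025 promoters and 23.9% of 7893 promoters of genes on the deposited table. The letters TGCGCA, part of the site of NRF1, a regulator of respiratory genes, was in 15 (24.2%), against 6.66% and 11.6%. The Sp1 core GGGCGG was in 48.4% of the members, 32.9% of all and 57.7% of the measured genes. In the same order, the CCAAT box was in 35.5%, 34.5% and 36.2%, and the E-box CACGTG in 8.06%, 6.05% and 8.29%. The YY1 core AAGATGGC was in 4.84%, 1.59% and 1.98%, or 3 of the 62 members. No other letters were searched. Matches describe the letters and are no evidence of binding. Shown here, because their transcripts carry the 2 calls and the largest drop described below, are the bases just before the annotated start of Mrps17 (chr5:129715247-129715449, plus strand), Mrps22 (chr9:98601680-98601929, minus strand) and Mrps21 (chr3:95871515-95871764, minus strand), each 5′ to 3′ on the strand of the gene. The Mrps17 stretch holds 203 of the 250 bases searched, because the annotated gene begins before the listed start. The sequences are shown with CGGAAG or its complement CTTCCG in capitals.
Mrps17: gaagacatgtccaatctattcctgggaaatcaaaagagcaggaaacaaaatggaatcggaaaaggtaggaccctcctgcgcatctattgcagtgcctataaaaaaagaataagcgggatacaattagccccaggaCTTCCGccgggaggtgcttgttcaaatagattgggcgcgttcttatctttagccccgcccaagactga
Mrps22: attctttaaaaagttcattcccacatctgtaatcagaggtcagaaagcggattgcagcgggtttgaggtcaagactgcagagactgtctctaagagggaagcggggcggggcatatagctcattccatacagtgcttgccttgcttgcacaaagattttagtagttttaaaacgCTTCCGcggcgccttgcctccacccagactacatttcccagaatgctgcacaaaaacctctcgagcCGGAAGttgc
Mrps21: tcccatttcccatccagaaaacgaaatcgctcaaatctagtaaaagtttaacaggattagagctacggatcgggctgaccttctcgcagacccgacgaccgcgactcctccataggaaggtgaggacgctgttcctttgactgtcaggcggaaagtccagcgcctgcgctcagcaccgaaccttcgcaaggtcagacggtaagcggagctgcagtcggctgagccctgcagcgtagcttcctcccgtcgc
The Mrps17 stretch as shown holds 1 such match, Mrps22 holds 2 and Mrps21 none.

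In PFC after LPS, 9 of 91 member probes were DE, which is 9.89% against 9.58% of all probes and so near the background. Of these, 6 were higher and 3 lower, where 4.61% and 4.97% of all probes were. Mrpl22, a large subunit protein near the exit tunnel, went from 10.07, 10.11 and 10.20 (lowest, median, highest control) to 10.13, 10.23 and 10.33 in 9 treated mice with a value. Its change was 0.12 (SE 0.03, adjusted p = 0.0994), with 9 of 9 above the control mean and 6 above the highest control. Mrpl2, a core protein of the large subunit, had control values of 9.89, 9.99 and 10.09 and treated values of 9.75, 9.90 and 9.98. All 10 treated mice were below its control mean, and the change was -0.13 (SE 0.04, adjusted p = 0.171). Mrps6, a small subunit protein, had a change of 0.12 (SE 0.05, adjusted p = 0.450) and a probe of Mrps25 one of -0.08 (SE 0.03, adjusted p = 0.426). The median change of all 91 members was 0.01, and 61.5% were higher against 48.7% of all probes.

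Markers of other cell types moved in the same LPS PFC arrays. Of 6 meningeal fibroblast markers 4 were measured, and their mean level was 10.17 to 10.95 in controls and 10.75 to 11.29 in treated mice, with Dcn (0.41, adjusted p = 0.0377) and Mgp (0.46, adjusted p = 0.0433) past the threshold. Without treated replicate 6 alone their adjusted p-values were 0.0530 and 0.0660. The 3 measured blood markers were all DE and higher, with a mean level of 9.94 to 10.3 in controls and 9.90 to 11.2 in treated mice. Of 5 measured microglia markers 4 were higher and 3 of them DE, led by C1qb (0.12, adjusted p = 0.256), with a mean level of 9.12 to 9.28 in controls and 9.19 to 9.38 in treated mice. All 6 astrocyte markers had a change above 0 and none was DE (10.72 to 10.90 and 10.77 to 10.93). Of 3 striatal neuron markers 1 was DE and higher, and their mean level was 8.78 to 9.41 and 8.81 to 10.59. The 4 measured neuron markers averaged 12.89 to 13.12 and 12.75 to 13.01. The part of these markers in the Mrps17 change was not tested.

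After Chronic drinking, the liver had 7 DE members of 91, 6 higher and 1 lower. That is 7.69% of the members against 12.1% of all probes, of which 6.31% were higher and 5.8% lower. The member median was 0.006. Mrpl46, a large subunit protein specific to mitochondria, had control values of 10.47, 10.54 and 10.62 over 9 mice and treated values of 10.52, 10.70 and 10.82. The change was 0.13 (SE 0.04, adjusted p = 0.110), and 7 of 10 treated mice were above every control. Mrps33, a small subunit protein, was read by 2 probes. The first had a change of 0.19 (SE 0.06, adjusted p = 0.159), from 10.30, 10.43 and 10.64 to 10.41, 10.66 and 10.98, and the second a change of 0.05. Mrpl47 had 0.14 (SE 0.05, adjusted p = 0.183) by the probe measured here, and Mrpl24 had -0.09 (SE 0.04, adjusted p = 0.318). In these arrays the 4 measured stellate cell markers of 5 listed were all lower, with a mean level of 10.6 to 11.5 in controls and 10.4 to 10.8 in treated mice, and 1 of them DE (Reln, -0.17, adjusted p = 0.282). Of the 4 measured sinusoidal endothelium markers 3 were higher and 2 DE, Lyve1 (0.15, adjusted p = 0.378) and Clec4g (0.11, adjusted p = 0.387), with a mean level of 10.08 to 10.92 and 10.26 to 10.43. The hepatocyte markers overlapped (13.11 to 13.58 and 13.21 to 13.54). Their part in the member changes was not tested.

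In CI liver 13 of 93 members were DE, 4 higher and 9 lower, and none passed adjustment. Of all probes 10.5% were DE, 5.23% higher and 5.24% lower, against 4.3% and 9.68% of the members. The excess of lower members depended on the fit: with array clusters as a term, 6 members were DE and 5 of them lower (5.38% against 5.06% of all probes), and with a trend and robust estimation 8 and 6 (6.45% against 5.07%). Of the members 65.6% were lower against 49.8% of all probes, with a median of -0.02. Mrpl49, a large subunit protein specific to mitochondria, had control values of 9.91, 10.15 and 10.23 and treated values of 10.13, 10.27 and 10.39 by the DE probe, with a change of 0.13 (SE 0.04, adjusted p = 0.193). Its other 3 probes gave -0.04 to -0.00, so the probes of the gene disagreed. Mrpl20, a large subunit protein whose bacterial counterpart takes part in assembly, changed by -0.14 (SE 0.05, adjusted p = 0.227), from 10.09, 10.17 and 10.35 to 9.81, 10.12 and 10.17, and all 10 treated mice were below its control mean. Mrpl28 had 0.12 (SE 0.05, adjusted p = 0.353), a probe of Mrpl33 -0.10 (SE 0.04, adjusted p = 0.366) and Mrps25 -0.07 (SE 0.03, adjusted p = 0.399).

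DID liver had 5 DE members of 89, 4 higher and 1 lower, or 5.62% against 5.19% of all probes (2.99% higher and 2.2% lower). The smallest p was for Mrpl50, a large subunit protein specific to mitochondria, with controls of 10.30, 10.47 and 10.65 and treated values of 10.55, 10.66 and 10.80. All 10 treated mice were above its control mean, and the change was 0.18 (SE 0.05, adjusted p = 0.258). Mrps6 had 0.16 (SE 0.06, adjusted p = 0.561), Mrpl14 0.16 (SE 0.07, adjusted p = 0.941), Mrpl49 0.11 (SE 0.05, adjusted p = 0.948) and Mrpl58, a peptidyl-tRNA hydrolase built into the particle, -0.09 (SE 0.04, adjusted p = 0.812).

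LPS liver had 8 DE members of 91, 3 higher and 5 lower, or 8.79% against 11.6% of all probes (6.21% higher and 5.38% lower). Without control replicate 1 and treated replicate 1, the 2 least correlated arrays, 5 were DE (5.49% against 10.1% of all probes). Both probes of Mrpl10, a protein of the large subunit stalk, were among the lower ones, with -0.11 (SE 0.04, adjusted p = 0.255) and -0.08 (adjusted p = 0.430). A probe of Mrps10 had -0.10 (SE 0.04, adjusted p = 0.297), and its other probe -0.04. For Mrps26 the probes went opposite ways, 0.12 (SE 0.05, adjusted p = 0.303) and -0.07. A second probe of Mrpl1 had 0.06 (SE 0.02, adjusted p = 0.323) where the other had -0.02, and Mrps2 had 0.08 (SE 0.04, adjusted p = 0.406). Markers of other liver cells moved in these arrays: 1 of 5 measured Kupffer markers (Marco, 0.35), 1 of 4 sinusoidal markers (Lyve1, 0.53) and 1 of 2 neutrophil markers (S100a8, 1.02) rose. Their part in the member changes was not tested.

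Mrps25, a small subunit protein specific to mitochondria, was with Mrps22 the probe DE in 3 comparisons. DE calls in 3 or more comparisons were held by 2.06% of the members and 1.86% of all probes. Over probes measured in all 8 sets the shares were 2.35% and 3.1%, so this recurrence was near the background. The Mrps25 probe had -0.08 in LPS PFC, -0.07 in CI liver and -0.05 in LPS liver (SE 0.03, adjusted p = 0.426), and none passed adjustment. Its values in LPS PFC were 8.64, 8.75 and 8.96 in controls and 8.62, 8.67 and 8.82 in treated mice. The other probes of Mrps25 had -0.02 and -0.00 in LPS PFC, and 1 of them had 0.00 in CI liver and -0.05 in LPS liver. The probes of the gene thus differed in size.

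In PFC after drinking, few members were DE. CI PFC had 1 of 92, or 1.09% against 5.21% of all probes (2.84% higher and 2.37% lower). It was Mrps30, from 10.31, 10.47 and 10.56 in controls to 10.48, 10.56 and 10.69, with a change of 0.10 (SE 0.04, adjusted p = 0.844) and all 10 treated mice above the control mean. DID PFC had 3 of 93, all higher, or 3.23% against 3.88% of all probes (1.84% higher and 2.04% lower). They were a probe of Mrps10 (0.11, SE 0.04), Mrpl14 (0.07, SE 0.03) and Mrps21 (0.09, SE 0.04), each with an adjusted p of 0.999. Chronic PFC had 3 of 94, or 3.19% against 4.38% of all probes (2.61% higher and 1.76% lower). They were Mrps27 (-0.07, SE 0.03), Mrps18c (-0.24, SE 0.11) and Mrpl57 (0.08, SE 0.04), each with an adjusted p of 0.998. Without treated replicates 6 and 2 none of the 3 was DE by limma: Mrps18c had -0.12 (p = 0.174), Mrps27 -0.05 (p = 0.1002) and Mrpl57 0.06 (p = 0.0939).

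In Chronic PFC the members leaned 1 way without any single call. Of 94 probes 79 were lower in treated mice (84.0% against 48.0% of all probes), with a median of -0.05 against 0.003. The lean held in both subunits, with 46 of 58 large subunit probes and 33 of 36 small subunit probes lower, and in probes with a bacterial counterpart (44 of 51) and without (35 of 43). It also held for the 73 members brighter than the set's median probe (63 lower) and the 21 dimmer ones (16 lower). It rested on 2 of the 10 treated arrays. The median deviation of the members from the set's mean was -0.38 on treated replicate 6 and -0.22 on replicate 2, and -0.09 to 0.13 on the other 17 arrays. Without replicate 6, 61 of 94 were lower (median -0.02). Without both, 43 of 94 were lower (median 0.005), with 1 DE member (1.06% against 3.42% of all probes).

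**Figure D3:**
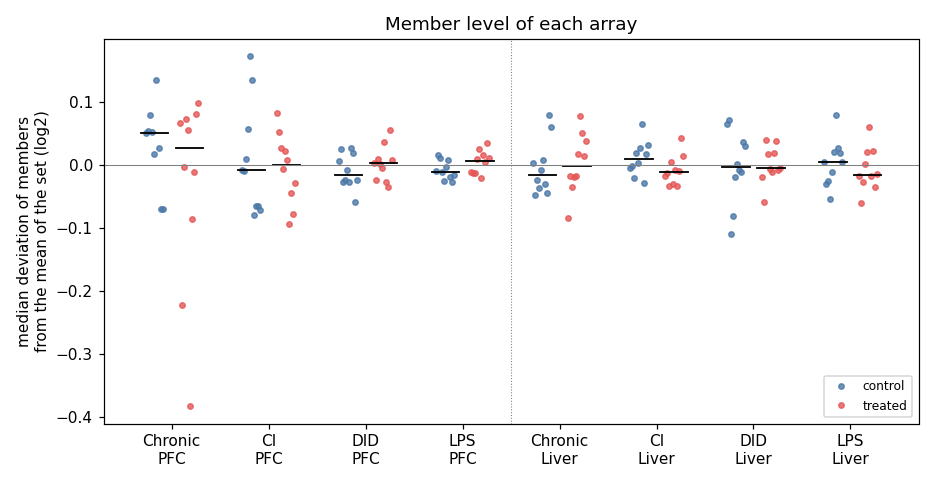
Median deviation of the member probes from the mean of the set on every array (log2), with controls in blue, treated mice in red and group medians as bars. In Chronic PFC 2 treated arrays lie at -0.38 and -0.22, and in CI PFC 2 control arrays at 0.17 and 0.13. The groups overlap in all 8 sets.

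On these 2 arrays, 44 of the 89 member probes with a value on both lay below every other array of the set and 1 above, and 80 were lower on average, with a median difference of -0.36. Mrps21, a small subunit protein, was at 9.93 and 9.97, where the other 17 arrays ran from 10.80 to 11.49. The Mrpl33 probe with the larger difference was at 10.61 and 10.56 against 11.30 to 11.94, Mrpl54 at 9.67 and 9.61 against 10.45 to 11.14, and Mrpl52 at 9.96 and 9.47 against 10.28 to 10.95. Mrpl50 was the probe above all others, at 11.55 and 11.75 against 11.16 to 11.50. These genes were chosen after their values were seen. Other ribosomal and mitochondrial transcripts were low on the same arrays, in families also chosen after their values were seen. The 60 probes of cytosolic ribosomal proteins had a median deviation of -0.63 and -0.60 on replicates 6 and 2, and the 49 probes of complex I (Nduf) -0.59 and -0.62. The median over the brighter probes of the set, members left out, was 0.05 on both arrays. These families were not removed from that group. The part of these families in the member levels was not tested.

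**Figure D4:**
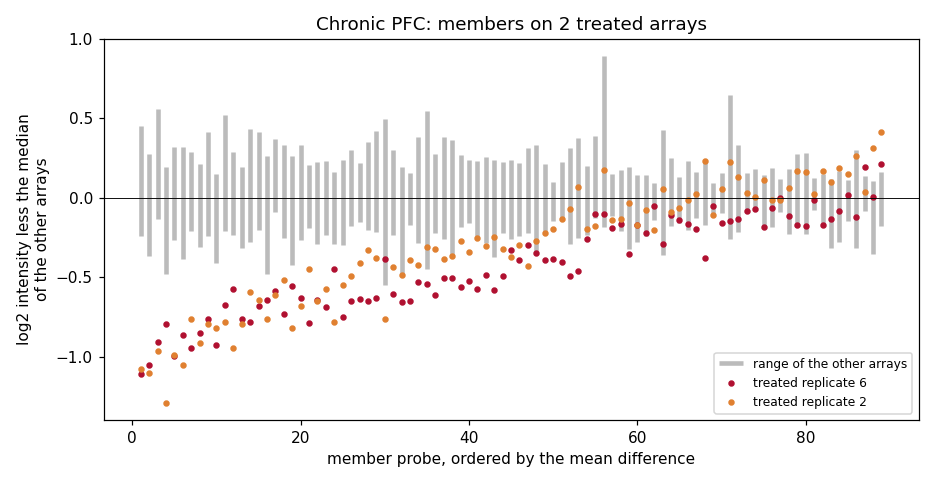
Log2 intensity of 89 member probes on Chronic PFC treated replicates 6 and 2, less the median of the other 17 arrays, ordered by the mean difference. Grey bars give the range of the other arrays. Of the 89 probes, 44 lie below the grey bar on both arrays and 1 above it.

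In CI PFC, arrays that stood apart turned the direction. With all arrays 58 of 92 members were lower (63.0% against 50.4% of all probes, median -0.02). Control replicates 5 and 6 had the highest member deviations of the set, 0.17 and 0.13. Without both, 61 of 92 members were higher (median 0.03), and 5 were DE, all higher. That is 5.43% of the members against 5.97% of all probes, of which 2.64% were higher and 3.33% lower. The 4 measured neuron markers averaged as low as 11.30 on a CI PFC control array and no lower than 12.57 on treated arrays. The 5 oligodendrocyte markers averaged 11.2 to 12.8 in controls and 11.5 to 11.8 in treated mice. The 3 striatal neuron markers averaged 8.47 to 10.8 and 9.46 to 10.9. With all arrays, all 3 striatal markers were DE and higher, with a median change of 0.72. The 4 measured meningeal fibroblast markers were all lower, 1 of them DE, with a median change of -0.36. No marker of either list passed adjustment. The part of these markers in the member levels was not tested.

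The mean pairwise correlation over probes, after removal of group means, was 0.35 over 19 Chronic PFC arrays and 0.29 over 20 CI PFC arrays, against 0.002 and 0.001 for all probes. Without the 2 arrays that stood apart in each, it was 0.21 in both sets. It was 0.06 in DID PFC and 0.02 in LPS PFC, and 0.06 to 0.10 in the 4 liver sets. The points of each correlation share their arrays. The within-group SD of a member had a median of 0.18 in Chronic PFC, where that of all probes was 0.13 (0.15 and 0.12 without the 2 arrays), and in the other sets 0.09 to 0.13 against 0.08 to 0.12. Mrpl20 and Mrpl52 had the largest within-group SD in PFC (0.26 and 0.23) and in liver (0.26 and 0.23). They were followed by Mrps21 in PFC (0.20) and Mrps18c in liver (0.19). The smallest were for Mrpl35 (0.06) and 2 probes of Mrpl51 in PFC, and for probes of Mrpl51 (0.05), Mrpl18 and Mrpl1 in liver.

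Levels in control mice were set side by side for the 85 probes measured in all 8 sets, as a description, because the tissues were normalized separately. For 15 probes every PFC control mean lay above every liver control mean (17.6%, against 31.8% of all probes), for 6 the reverse held (7.06% against 13.1%), and 64 overlapped. Mrpl14, a core large subunit protein, had study means of 11.09 to 11.96 in liver and 9.71 to 10.41 in PFC, a difference of -1.52 for PFC less liver. Mrps24 differed by -0.70 and both separated probes of Mrps31 by -0.52 and -0.41. On the other side, Mrps6 had 10.27 to 10.74 in PFC and 8.90 to 9.87 in liver, a difference of 1.13. Both probes of Mrps26 (1.12 and 1.08), of Mrps33 (1.00 and 0.98) and of Mrpl3 (0.87 and 0.75), and 3 probes of Mrpl48 (0.77 to 0.82), also lay above in PFC.

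**Figure D5:**
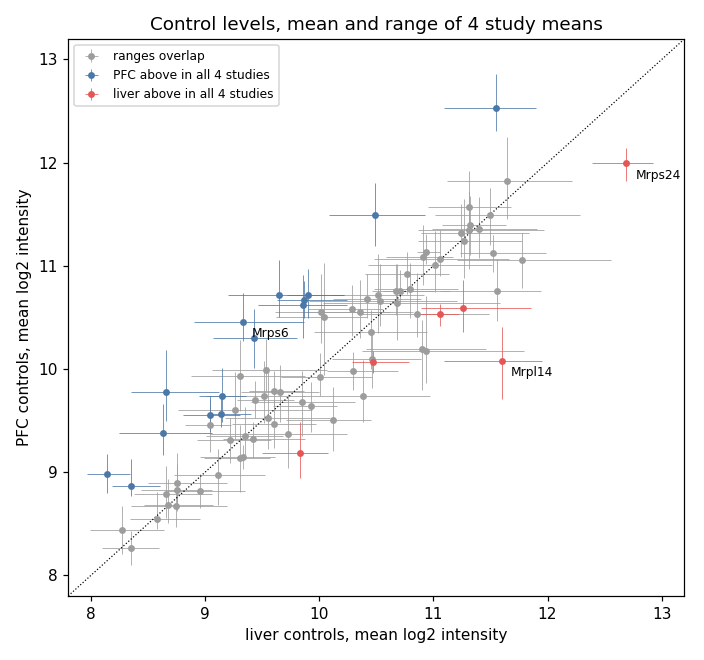
Mean log2 intensity of 85 member probes in PFC controls (vertical) against liver controls (horizontal). Points are means of 4 study means, and lines their ranges. The dotted line marks equal values; 15 probes lie above it and 6 below it with ranges that do not overlap.

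Genes that act with the mitochondrial ribosome gave 3 calls over all their lists and all 8 comparisons. Of all probes, 0.555% passed in LPS liver, 1.5% in Chronic liver and 0.23% in CI liver. Chchd1, which encodes a small subunit protein under another kind of symbol, fell in LPS liver by 0.15 (SE 0.03, adjusted p = 0.0232). It is 1 of 3 measured genes of 5 listed with other symbols, and all 3 were lower there. Rmnd1, a factor that supports mitochondrial translation, fell in Chronic liver by 0.18 (SE 0.04, adjusted p = 0.0238); of the 11 measured translation factors 9 were higher there, with a median of 0.03. Ppargc1b, a coactivator of mitochondrial biogenesis, rose in CI liver by 0.20 (SE 0.04, adjusted p = 0.0416), 1 of 6 measured nuclear regulators, of which 3 were higher and 3 lower.

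No member of the remaining lists passed adjustment. Among 19 measured assembly and rRNA modification genes in Chronic liver, Ddx28 had 0.09 (adjusted p = 0.169) and Mpv17l2 -0.16 (adjusted p = 0.198). In CI liver Nsun4, an rRNA methyltransferase, had 0.15 (adjusted p = 0.125), and 2 of 17 were DE and higher, as were 5.23% of all probes. Of the aminoacyl-tRNA synthetases, Lars2 was DE and higher in Chronic liver (0.11), Chronic PFC (0.12) and DID liver (0.09), with adjusted p-values of 0.186, 0.897 and 0.609. Wars2 had -0.14 in Chronic PFC (adjusted p = 0.398). Of the transcription genes, Tfb2m had 0.16 in CI liver (adjusted p = 0.169) and Tfam 0.16 in Chronic liver (adjusted p = 0.281). Of the genes that stand for mitochondrial mass, all 6 measured were higher in CI liver, with a median of 0.03, where 50.2% of all probes were higher. Phb2 had 0.19 there (adjusted p = 0.0948), while 61 of the 93 ribosomal probes were lower in that set.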

How the data were processed

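The authors deposited log2 intensities, produced with lumi (its version is not given in the sources used here) by variance stabilization and quantile normalization within each tissue and treatment. They had kept transcripts detected on most arrays of a set and blanked outlying single values by Grubbs' test, which narrows the spread within a group. Members hold 7 to 15 blanks in a set. Their bead signal tables (159 columns) were not used, because the labels do not tie the columns to mice. Symbols came from the platform annotation, and none of the members needed an update. Treated less control was fitted with limma 3.58.1 (R 4.3.3) in each of 8 sets over all its probes, with Benjamini-Hochberg adjustment, and differences between studies or tissues as interaction contrasts. PFC and liver arrays of a mouse are not tied by the labels and entered as independent. Named are members past the adjusted threshold, the up to 5 smallest p-values among DE members of each comparison, members DE in 3 or more, and the most and least variable. The rule also held the brightest and dimmest, which are not given because intensities of different probes cannot be compared. The members and lists were chosen with earlier results of these data known. The code was tested on simulated data. Of several probes of a gene on the other lists, the brightest was used. The number of arrays limits the precision.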

Additional observations from a re-analysis of the deposited data

Results flagged for a closer look

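Mrps22 differed between liver studies: Chronic less CI was 0.31 and Chronic less LPS 0.34 on the log2 scale, 2 of the 16 contrasts between studies or tissues in which a member passed the adjusted threshold. The Mrps25 probe on LPS PFC treated replicate 10 was at 8.82, apart from the nearest value of its group at 8.72. This was 1 group of 70 tested for an array far from the others, where chance nominally flags about 1 in 20, and the authors had already blanked outlying values.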

How the results depend on the processing

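The median change of the members moved by less than the spread between arrays under all 72 alternatives. That spread was wide: 0.11 in Chronic PFC and 0.07 in CI PFC, where the median changes were -0.05 and -0.02. A median could turn its direction within it, so this measure does not show that the medians were stable. The direction turned in CI PFC (4 of 9 alternatives), Chronic PFC (2), Chronic liver (3, lowest -0.008) and DID liver (1, 0.008). No called change, of a member or of a gene of the other lists, changed sign in the alternatives run. Counts of calls were less stable. With the replicate block, the adjusted counts were 0 in LPS PFC and 0 in Chronic liver (Mrps17 adjusted p = 0.0525, Mrps22 adjusted p = 0.0556). The DE count was 4 in CI PFC (4.35% against 6.81% of all probes), against 1 without the block. It was 1 in DID PFC (1.08% against 3.57%) and 5 in LPS liver (5.49% against 11.6%), against 3 and 8. The labels tie same-numbered arrays by number alone. Pairs that deviated together with a correlation over 0.1 were 9 of 10 in CI PFC, 6 of 9 in Chronic PFC and at most 4 of 10 elsewhere, and at most 4 pairs of a set correlated best with their own number. Without probes that hold a blank, the adjusted count was 0 in LPS PFC, where Mrps17 itself holds a blank and drops out. It was also 0 in Chronic liver (Mrps22 adjusted p = 0.0578). DE members were 4 in Chronic liver (5.13% against 10.6% of all probes) and 5 in LPS liver (6.17% against 10.5%), against 7 and 8. The 2 least correlated arrays of a set were also left out, a choice made after seeing the data. The adjusted counts were then 0 in LPS PFC (Mrps17 0.22, adjusted p = 0.0506) and 0 in Chronic liver (Mrps22 adjusted p = 0.0630). The DE count was 1 in Chronic PFC (1.06% against 3.42% of all probes). It was 5 in CI PFC (5.43% against 5.97%) and 5 in LPS liver (5.49% against 10.1%). Leaving out the least correlated array alone gave 2 in CI PFC (2.17% against 3.97%). With array weights, the DE count was 7 in Chronic PFC (7.45% against 5.13% of all probes) and 3 in CI PFC (3.26% against 5.9%). It was 5 in DID PFC (5.38% against 5.04%). In Chronic liver it was 12 of 91 members, a smaller share than the 15.8% of all probes. Members differing between studies were then 4 in liver against 2 and, between tissues, 1 against 0. These counts of differing members are given without a share of all probes and were not weighed against the background. With array clusters as a term, the DE count was 7 in CI PFC (7.61% against 8.08% of all probes). It was 6 in CI liver (6.45% against 10.5%) and 5 in LPS liver (5.49% against 10.1%). In LPS liver the clusters held 18, 1 and 1 arrays. The fit there gave the same values as leaving out the 2 least correlated arrays, so it is no separate alternative. With a trend and robust estimation, the DE count was 1 in DID PFC (1.08% against 3.67% of all probes). It was 8 in CI liver (8.6% against 10.2%) and 3 in DID liver (3.37% against 4.96%). Without the dimmest 25% of probes, it was 3 in LPS liver (3.7% against 12.3%). Of the values of named members, 301 kept their direction and their side of the threshold, most of them values that had not passed adjustment. The other 5 were lost calls of Mrps17 or Mrps22. The Mrps22 differences between studies kept direction and side in all 8 cases run. Calls of genes of the other lists were lost in 20 of 67 cases, among them Chchd1 (adjusted p up to 0.106), Rmnd1 (up to 0.0764) and Ppargc1b (up to 0.139).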
